A study of Mus musculus with 8 samples.

Results

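DNA replication and S-phase genes encode the machinery that licenses and fires replication origins, copies DNA at the fork, supplies deoxynucleotides, restores chromatin behind the fork and switches cells from G1 into S phase. The 55 genes described here were taken by symbol from the 16160 genes of the deposited count table. All 55 were present and all 55 were among the 13211 genes that passed the filter on low counts, the lowest count of any of them in any library being 323 reads (Orc1). RNA-Seq was carried out on monocytic cells sorted from the bone marrow (BM) of wild type C57BL/6 mice by the gate CD11c- CD11b+ Ly6G- SiglecF- Ly6Chi and then by CD115, the receptor of M-CSF encoded by Csf1r. There were 4 groups. M-MDSCs (monocytic myeloid-derived suppressor cells) of EL4 tumor-bearing (TB) mice gave tCD115- and tCD115+ cells. The same gate in naive, tumor-free mice gave the monocytes called nCD115- and nCD115+. TB mice carried subcutaneous EL4, a mouse T cell lymphoma line, and their cells were taken on day 21 after inoculation. Each group had 2 libraries, called biological replicates by the study. The sources used here do not say whether a library came from 1 animal or from a pool, nor whether both subsets came from the same animals. EL4 is 1 tumor line, so the host difference is that of this line.

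In G1, the origin recognition complex, Cdc6 and Cdt1 load the Mcm helicase onto DNA, and in S phase the kinase Cdc7 with its activating subunit Dbf4, together with cyclin E and Cdk2, turns it into an active helicase with Cdc45 and the GINS complex. Most of these genes are targets of E2F transcription factors, which pocket proteins of the Rb family restrain until D cyclins with Cdk4 or Cdk6 release them. Their mRNAs therefore peak around the G1/S boundary, and in BM they are abundant in dividing progenitors and fall as myeloid cells mature. In bulk samples, more cells in S phase and more of these mRNAs per cell cannot be told apart.

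The 55 genes were highest in tCD115- and lowest in nCD115+ cells, with tCD115+ and nCD115- cells between them. Their summed level was 7945 and 7170 CPM (counts per 1000000 reads, with library sizes scaled by trimmed mean of M-values) in the tCD115- libraries, 5930 and 6260 CPM in tCD115+, 5571 and 6074 CPM in nCD115- and 4307 and 3876 CPM in nCD115+. The group mean was highest in tCD115- for 48 genes and in tCD115+ for 7 (Mcm3, Mcm10, Gins1, Dbf4, Pola1, Pola2 and Pold2), and lowest in nCD115+ for 54, the exception being Pold2. The mean of the standardised log2 CPM of the 55 genes was 1.24 and 0.78 in tCD115- libraries against 0.18 and 0.42 in tCD115+ libraries. It was −0.12 and 0.14 in nCD115- libraries against −1.05 and −1.60 in nCD115+ libraries. By this score no groups overlapped, whereas the summed levels of tCD115+ and nCD115- cells did overlap. Within tCD115- replicate 1 exceeded replicate 2 for 48 genes, and within nCD115+ replicate 2 was below replicate 1 for 54, so the genes varied together between replicates as well.

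**Figure D1:**
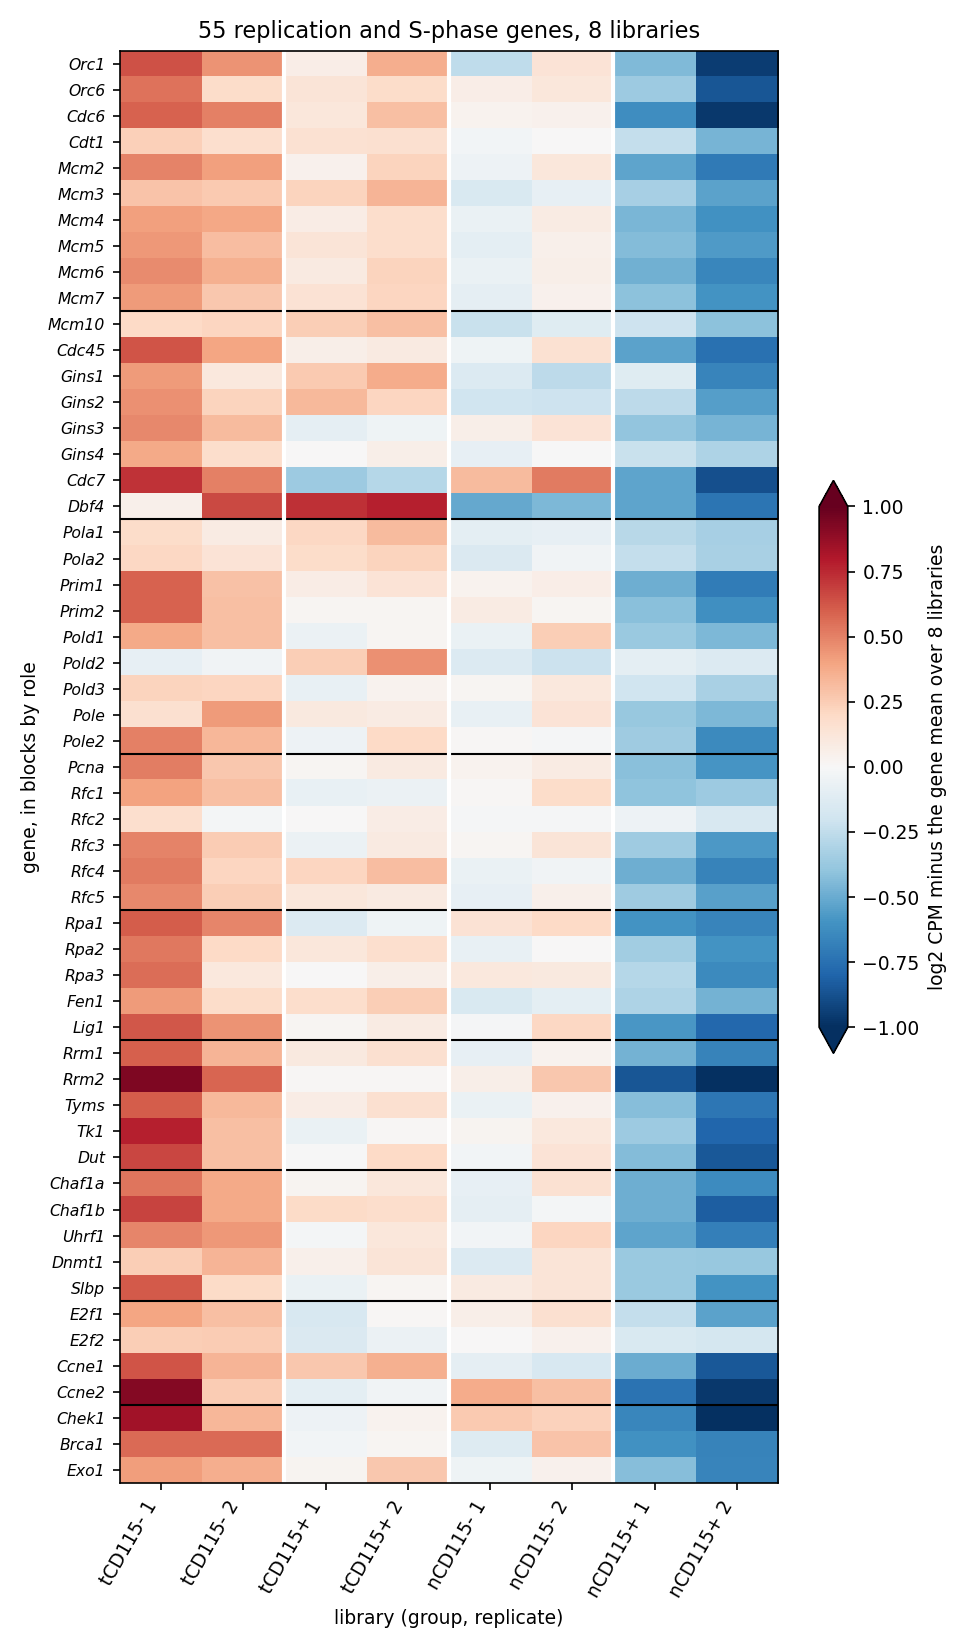
Each row is 1 of the 55 genes and each column 1 of the 8 libraries; colour gives log2 CPM minus the mean of that gene over the 8 libraries, and black lines separate the blocks of genes by role, from origin licensing at the top to checkpoint and repair at the bottom. No gene was above its own mean in either nCD115+ library, while 54 and 53 genes were above it in the tCD115- libraries; Dbf4 and Pold2 stand out as high in tCD115+.

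Monocyte markers were present in every library, while transcripts of neutrophil granules were high in both CD115- groups although the gate was Ly6G-. The 10 monocyte markers summed to 4949 and 8816 CPM in tCD115-, 15876 and 14576 CPM in tCD115+, 11978 and 11666 CPM in nCD115- and 15995 and 19257 CPM in nCD115+ libraries, and 9 of them fell in tCD115- over tCD115+ cells and 1 in nCD115- over nCD115+. Csf1r itself had 283 and 490.2 CPM in tCD115- against 891 and 869 CPM in tCD115+ cells, and 825 and 728 CPM in nCD115- cells against 1159 and 1333 CPM in nCD115+ cells, as a mark used in the sort. The 8 markers of primary granules and promyelocytes, which are dividing cells, summed to 8236 and 4964 CPM in tCD115-, 1659 and 1660 CPM in tCD115+, 3069 and 4042 CPM in nCD115- and 1156 and 805 CPM in nCD115+. All 8 rose in tCD115- over tCD115+ cells and 7 in nCD115- over nCD115+. The 8 markers of secondary granules summed to 67127 and 44991 CPM in tCD115-, 4554 and 3310 CPM in tCD115+, 33568 and 43183 CPM in nCD115- and 2595 and 3676 CPM in nCD115+, and the 8 markers of mature neutrophils to 58729 and 34245, 1077 and 721, 24450 and 31443, and 541 and 639 CPM in the same order. In each subset comparison 7 secondary granule markers rose, while Mmp8 fell in tCD115- over tCD115+ cells. All 8 mature neutrophil markers rose there and 7 in nCD115- over nCD115+. Between hosts, 2 primary granule and 3 mature neutrophil markers rose in each subset. Of the secondary granule markers 1 rose in CD115- cells, and 2 rose and 1 fell in CD115+ cells. Of all tested genes, 3.19% rose with the tumor in CD115- and 6.09% in CD115+ cells. Ly6g, which the gate excluded as a protein, had 44.3 and 26.7 CPM in tCD115- against 0.98 and 0.468 CPM in tCD115+ cells. In naive mice, Ly6g had 20.3 and 25.0 CPM in nCD115- cells against 0.36 and 0.45 CPM in nCD115+ cells. The 10 T cell markers summed to 12.5 and 25.4 CPM in tCD115-, 2.09 and 2.52 CPM in tCD115+, 12.8 and 11.6 CPM in nCD115- and 5.57 and 4.94 CPM in nCD115+. All 10 rose by at least 2-fold in tCD115- over tCD115+ cells and 4 in nCD115- over nCD115+. None passed in tCD115- over nCD115- cells, and 3 fell in tCD115+ over nCD115+. The sums of B cell markers (10.4 to 31.3 CPM), erythroid (2.25 to 21.6 CPM) and megakaryocyte markers (0.697 to 14.7 CPM) were low in every library. By group, the megakaryocyte sums were 5.62 and 14.7 (tCD115-), 0.697 and 0.702 (tCD115+), 11.5 and 12.1 (nCD115-), and 1.15 and 1.26 CPM (nCD115+). Of the 5 megakaryocyte markers tested, 2 rose between subsets in TB mice and 1 in naive mice, and none fell. Their log2 fold changes between subsets were negative for 1 marker in TB and for 2 in naive mice. None passed between hosts. Basophil and mast cell markers summed to 158 and 123 CPM in tCD115-, 6.29 and 5.14 CPM in tCD115+, 77.5 and 108 CPM in nCD115- and 12.6 and 11.2 CPM in nCD115+. Of these 7 markers, only 2 rose and none fell in each subset comparison. Their log2 fold changes between subsets were negative for 3 markers in TB and for 4 in naive mice. Between hosts, none rose, and 1 fell in CD115- and 1 in CD115+ cells. The 9 stem and progenitor markers tested summed to 238 and 204.9 CPM in tCD115-, 71.9 and 169 CPM in tCD115+, 264 and 271 CPM in nCD115- and 235 and 217 CPM in nCD115+. The tCD115+ sums differ through Cebpa, at 10.9 CPM in replicate 1 and 113 CPM in replicate 2. Of the 9 markers, 3 (Kit, Myb and Hlf) rose in both subset comparisons, while 3 (Cd34, Flt3 and Meis1) fell in tCD115- over tCD115+ and 1 (Cd34) in nCD115- over nCD115+. Kit, the receptor of stem cell factor, had 45.3 and 31.8 CPM in tCD115- against 2.33 and 1.75 CPM in tCD115+ cells, and Myb, a transcription factor of progenitors, had 109 and 78.8 CPM in tCD115- against 34.0 and 33.3 CPM in tCD115+ cells. In naive mice, Kit had 41.9 and 55.4 CPM in nCD115- cells against 2.96 and 2.72 CPM in nCD115+ cells. Between hosts, 1 of the 9 (Flt3) fell in tCD115- over nCD115- cells and none passed in tCD115+ over nCD115+. The 8 dendritic cell markers summed to 62.5 and 58.4 CPM in tCD115-, 106 and 80.8 CPM in tCD115+, 212 and 163 CPM in nCD115- and 323 and 336 CPM in nCD115+. Of the 7 tested, 1 (Siglech) rose and 4 fell in tCD115- over tCD115+, 2 fell in nCD115- over nCD115+, 6 in tCD115- over nCD115- and 5 in tCD115+ over nCD115+. Of all tested genes, 17.7% rose and 19.9% fell in tCD115- over tCD115+ cells at an adjusted p under 0.05. In nCD115- over nCD115+ cells 11.8% rose and 3.23% fell. Between hosts, 6.49% fell in tCD115- over nCD115- and 4.2% in tCD115+ over nCD115+ cells. No list had a marker at 0 in all libraries. The part of these cells in the S-phase gene differences was not tested.

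**Figure D2:**
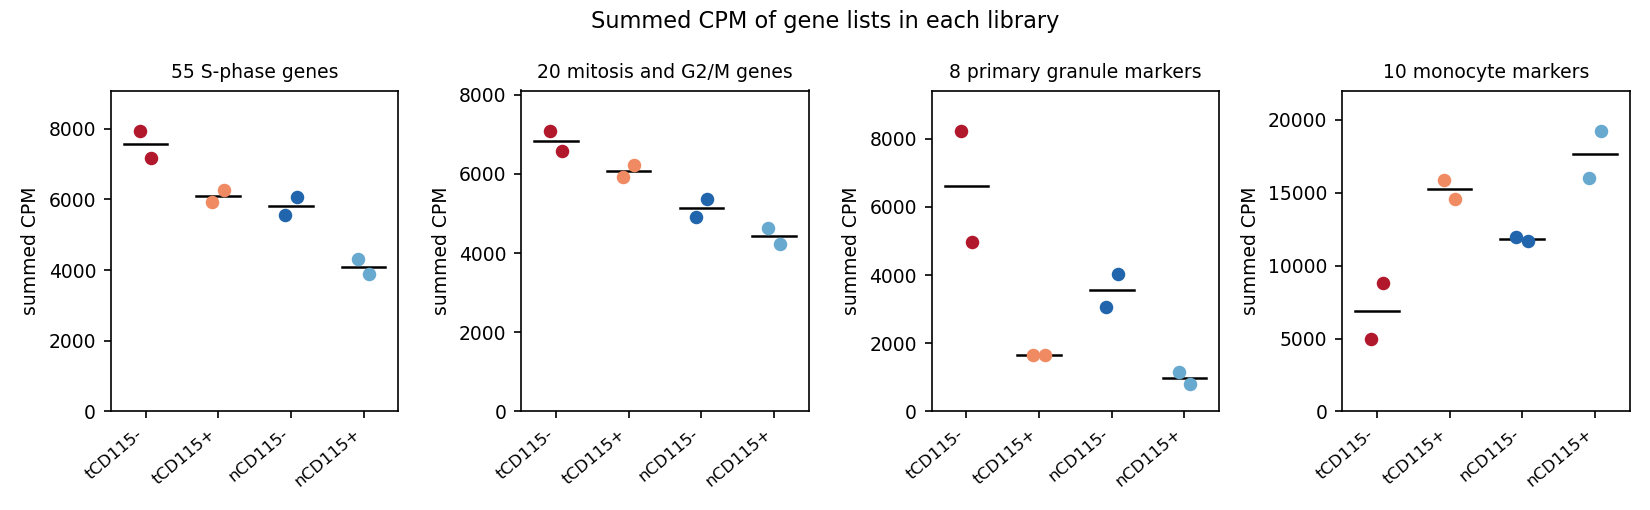
Summed CPM of 4 gene lists in each library (points) with group means (bars), axes from 0: the 55 S-phase genes, 20 mitosis and G2/M genes, 8 primary granule markers and 10 monocyte markers. The S-phase and mitosis sums run from tCD115- down to nCD115+, the primary granule sum is 4964 CPM or more in tCD115- and 1660 CPM or less in both CD115+ groups, and the monocyte sum is lowest in tCD115-.

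The promoters are shown because these genes moved together and because E2F binding words are the feature they are best known to share. Of the 55 genes, 46 had an entry among RefSeq promoter sequences of build GRCm38, each running from 250 bases before to 50 bases after an annotated transcription start. They were searched on both strands for the E2F words TTTCCCGC, TTTGGCGC, TTTGGCGG and TTCCCGCC, of which the first and the last can overlap. At least 1 word was present in 24 of the 46 genes (52.2%), against 820 of the 10460 tested genes with an entry (7.84%). The CCAAT word was present in 58.7% of the 46 and 43.4% of those tested, and the cell cycle homology word TTTGAA in 19.6% and 14.8%. A match describes letters in this window and is not a measured binding site. The following 6 promoters are shown for genes on which the results turn. Cdc7 and Dbf4, the subunit genes of 1 kinase, passed in different comparisons. Rpa1 and Cdc6 had the smallest adjusted p of the 55 genes in 4 comparisons between them. Mcm3 rose between hosts in both subsets, and E2f2 rose between subsets in TB mice. Sequences run 5′ to 3′ on the strand of the gene, and capitals mark E2F words. For Cdc7 the downstream of the listed starts is shown, and the other listed start held no E2F word, nor did the window of Dbf4. For E2f2 the upstream of the listed starts is shown, and the other held no E2F word. Rrm2, which rose in all 4 comparisons, is not shown and held no E2F word. All windows shown but that of Dbf4 hold an E2F word, a larger share than among the 46 genes.
Cdc7, chr5:106964311-106964610, plus strand: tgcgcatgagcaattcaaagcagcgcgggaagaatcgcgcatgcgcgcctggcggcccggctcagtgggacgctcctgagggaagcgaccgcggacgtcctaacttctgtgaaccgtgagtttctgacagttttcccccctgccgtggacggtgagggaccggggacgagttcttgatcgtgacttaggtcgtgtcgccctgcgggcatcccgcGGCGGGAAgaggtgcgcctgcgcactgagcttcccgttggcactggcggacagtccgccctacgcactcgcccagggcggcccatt
Dbf4, chr5:8422667-8422966, minus strand: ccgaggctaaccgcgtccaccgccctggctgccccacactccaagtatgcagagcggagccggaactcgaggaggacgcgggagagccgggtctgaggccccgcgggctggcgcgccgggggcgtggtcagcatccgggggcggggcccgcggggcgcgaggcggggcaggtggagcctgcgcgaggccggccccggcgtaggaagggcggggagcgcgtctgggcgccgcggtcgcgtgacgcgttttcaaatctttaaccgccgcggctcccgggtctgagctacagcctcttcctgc
Rpa1, chr11:75348334-75348633, minus strand: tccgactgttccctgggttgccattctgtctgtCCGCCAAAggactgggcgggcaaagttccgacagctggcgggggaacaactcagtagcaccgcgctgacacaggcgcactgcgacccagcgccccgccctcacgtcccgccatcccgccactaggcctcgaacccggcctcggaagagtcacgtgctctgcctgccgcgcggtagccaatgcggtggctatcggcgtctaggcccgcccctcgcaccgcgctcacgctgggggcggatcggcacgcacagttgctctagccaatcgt
Cdc6, chr11:98907901-98908200, plus strand: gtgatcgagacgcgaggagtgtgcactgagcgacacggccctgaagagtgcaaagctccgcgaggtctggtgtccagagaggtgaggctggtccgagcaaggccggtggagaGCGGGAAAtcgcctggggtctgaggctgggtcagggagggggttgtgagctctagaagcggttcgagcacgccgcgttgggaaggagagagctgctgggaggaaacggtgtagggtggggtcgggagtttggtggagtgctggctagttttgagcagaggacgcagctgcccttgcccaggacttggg
Mcm3, chr1:20820263-20820562, minus strand: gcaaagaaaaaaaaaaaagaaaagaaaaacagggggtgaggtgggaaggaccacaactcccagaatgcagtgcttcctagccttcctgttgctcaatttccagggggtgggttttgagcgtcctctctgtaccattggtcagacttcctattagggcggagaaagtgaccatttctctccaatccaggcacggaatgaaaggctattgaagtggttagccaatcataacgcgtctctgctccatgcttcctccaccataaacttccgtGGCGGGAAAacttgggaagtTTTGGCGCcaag
E2f2, chr4:136172024-136172323, plus strand: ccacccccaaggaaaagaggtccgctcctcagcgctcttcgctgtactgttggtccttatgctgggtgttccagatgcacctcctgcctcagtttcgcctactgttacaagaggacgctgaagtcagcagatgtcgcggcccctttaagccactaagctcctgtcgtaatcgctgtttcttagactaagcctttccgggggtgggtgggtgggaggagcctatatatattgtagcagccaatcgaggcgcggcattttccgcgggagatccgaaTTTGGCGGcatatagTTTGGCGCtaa
The word in Cdc7 begins 36 bases before the start site and that in Cdc6 138 bases before it. The 3 words of Mcm3, of which 2 overlap, begin 18 to 38 bases after it. The 24 genes with an E2F word and the 22 without one had median log2 fold changes of 0.34 and 0.33 for tCD115- over tCD115+, 0.53 and 0.56 for nCD115- over nCD115+, 0.37 and 0.43 for tCD115- over nCD115-, and 0.60 and 0.62 for tCD115+ over nCD115+. Of the 24 genes with the word 11, 20, 8 and 20 rose in these comparisons, in the same order, and of the 22 without it 9, 14, 8 and 18. The difference between the 2 sets was not tested.

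The 2 subset and 2 host comparisons and their interaction were tested in 1 model of all 8 libraries, by the quasi-likelihood test of edgeR, with p-values adjusted over 13211 genes after Benjamini and Hochberg. A gene rose or fell where its adjusted p was under 0.05 at any fold, and a gene past 2-fold also had a fold change of at least 2, the threshold of the study. In EL4 TB mice, 23 of the 55 genes rose in tCD115- over tCD115+ cells, against 17.7% of all tested genes, and 1 (Pold2) fell, against 19.9%. None was past 2-fold with edgeR, DESeq2 or limma-voom, against 8.36% of all genes higher and 3.97% lower with edgeR, although 33 genes were higher and 1 lower at an unadjusted p under 0.05, as were 21.5% and 25.9% of all genes. In naive mice, 39 rose in nCD115- over nCD115+ cells, against 11.8% of all genes, and 4 (Cdc7, Rrm2, Ccne2 and Chek1) were past 2-fold, against 5.73%. Between hosts, 18 rose in tCD115- over nCD115- cells, against 3.19%, none past 2-fold with any of these tools, against 0.855% higher and 2.43% lower, although 44 were higher at an unadjusted p under 0.05, as were 14.3% of all genes. In tCD115+ over nCD115+ cells 44 rose, against 6.09%, and 1 (Dbf4) was past 2-fold, against 0.939%. No gene fell in these last 3 comparisons with edgeR, DESeq2 or limma-voom, nor was any lower at an unadjusted p under 0.05. Of all tested genes, 3.23%, 6.49% and 4.2% fell in nCD115- over nCD115+, tCD115- over nCD115- and tCD115+ over nCD115+ cells, and 0.484%, 2.43% and 1.66% fell past 2-fold.

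The shifts were small and shared by most of the genes. The median log2 fold change of the 55 genes was 0.33 for tCD115- over tCD115+, 0.54 for nCD115- over nCD115+, 0.39 for tCD115- over nCD115- and 0.63 for tCD115+ over nCD115+, which are folds of 1.253, 1.451, 1.308 and 1.547. Over all tested genes the medians were −0.05, −0.01, 0.0001 and 0.02. Both tCD115- libraries were above both tCD115+ libraries for 42 of the 55 genes and below them for 4 (Mcm10, Dbf4, Pola1 and Pold2), while 31.4% of all tested genes had both above and 40.1% both below. Both nCD115- libraries were above both nCD115+ libraries for 52 genes (33.4% of all genes). Both tCD115- libraries were above both nCD115- libraries for 52 (28.3%), and both tCD115+ libraries above both nCD115+ libraries for all 55 (36.3%). The 8 genes Mcm2, Mcm4, Cdc45, Rpa1, Lig1, Rrm1, Rrm2 and Chaf1a rose in all 4 comparisons. Gins1, Gins4, Rfc2 and Rpa3 rose in none. Of all 13211 tested genes, at most the 273 that rose in both host comparisons can have risen in all 4. The numbers of all tested genes that rose in all 4 or in none were not counted. Of the 23 that rose with the subset in TB mice, 21 (91.3%, and 53.8% of the 39) also rose in naive mice, and the other two were Tk1 and E2f2. Over all tested genes, 1443 rose in both, which is 61.8% of those that rose in TB and 92.4% of those that rose in naive mice. All 18 that rose with the tumor in CD115- cells were among the 44 that rose in CD115+ cells (40.9% of the 44). Over all tested genes, 273 rose in both host comparisons, 64.7% of those that rose in CD115- and 34% of those that rose in CD115+ cells.

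**Figure D3:**
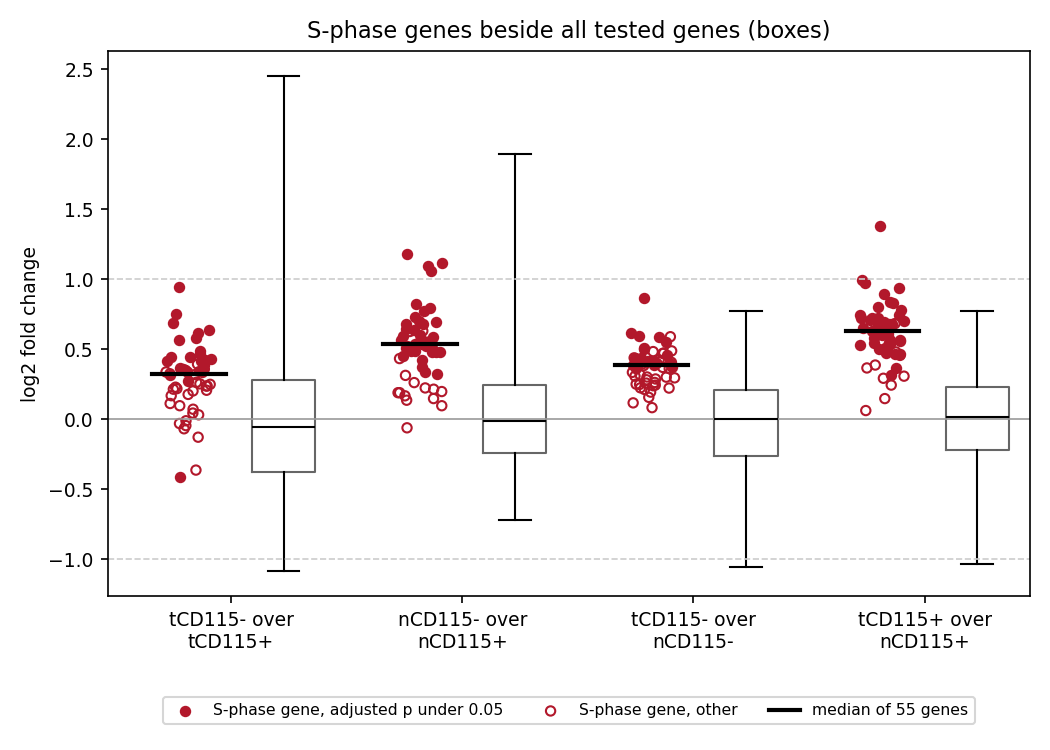
Log2 fold changes of the 55 genes in 4 comparisons (filled points, adjusted p under 0.05; open points, other genes; black line, median), beside boxes of all 13211 tested genes with whiskers from the 5th to the 95th percentile. The medians of the 55 genes were 0.33, 0.54, 0.39 and 0.63, and the dashed lines mark 2-fold changes.

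With 2 libraries a group, the counts depended on single libraries while the medians moved little. Leaving out a library gave 14 (tCD115- replicate 1), 35 (tCD115- replicate 2), 3 (tCD115+ replicate 1), 5 (tCD115+ replicate 2) or 15 (nCD115- replicate 2) genes that rose in tCD115- over tCD115+ cells, with medians of 0.23 to 0.39, and Pold2 was no longer called without tCD115+ replicate 2. For nCD115- over nCD115+ the count was 24 (nCD115- replicate 1), 8 (nCD115- replicate 2) or 6 (nCD115+ replicate 2), with medians of 0.43 to 0.65. For tCD115- over nCD115- it was 43 without tCD115- replicate 2 and 1 without tCD115- replicate 1 or nCD115- replicate 2, 0 without nCD115- replicate 1 or either tCD115+ library and 2 without either nCD115+ library, with medians of 0.29 to 0.46. For tCD115+ over nCD115+ it was 1 (tCD115+ replicate 1), 27 (nCD115- replicate 1), 10 (nCD115+ replicate 1) or 0 (tCD115+ replicate 2 or nCD115+ replicate 2), with medians of 0.52 to 0.72. The count over all tested genes fell with it in that comparison, to 18 without tCD115+ replicate 1 and 35 without tCD115+ replicate 2, against 804 with all libraries. With all libraries, DESeq2 gave 40 genes that rose in tCD115- over nCD115- cells, a fit of only the 4 libraries compared gave 0, and library totals alone gave 8 there and 8 in tCD115- over tCD115+ cells. An exact permutation test of a single gene in 2 libraries against 2 cannot give a p below 0.333.

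Origin licensing genes place the inactive helicase on DNA. All 10 (Orc1, Orc6, Cdc6, Cdt1 and the Mcm helicase subunit genes Mcm2 to Mcm7) rose in tCD115+ over nCD115+ cells, 6 in tCD115- over nCD115-, 8 in nCD115- over nCD115+ and 2 (Mcm2 and Mcm4) in tCD115- over tCD115+ cells. These are 100%, 60%, 80% and 20% of the 10, against 6.09%, 3.19%, 11.8% and 17.7% of all tested genes. Cdc6, the loading factor that recruits the helicase, had 58.2 and 54.8 CPM in tCD115- against 41.8 and 47.5 CPM in tCD115+ cells. In naive mice, Cdc6 had 39.5 and 39.8 CPM in nCD115- cells against 25.1 and 19.7 CPM in nCD115+ cells. The groups did not overlap, and the log2 fold change was 0.99 (SE 0.12, adjusted p = 0.00873) for tCD115+ over nCD115+, the smallest adjusted p of the 55 genes in that comparison, and 0.82 (SE 0.12, adjusted p = 0.00391) for nCD115- over nCD115+. For tCD115- over tCD115+ it was 0.34 (SE 0.12, adjusted p = 0.0584), which did not pass. Mcm2 had 206 and 194 CPM in tCD115- against 150.3 and 171 CPM in tCD115+ cells. In naive mice, Mcm2 had 141 and 159 CPM in nCD115- cells against 102 and 89.7 CPM in nCD115+ cells. Mcm4 had 194 and 191 CPM in tCD115- against 154 and 165 CPM in tCD115+ cells. In naive mice, Mcm4 had 139.8 and 155 CPM in nCD115- cells against 106 and 96.1 CPM in nCD115+ cells. Both helicase genes rose in all 4 comparisons, Mcm2 by log2 fold changes of 0.32 to 0.75 and Mcm4 by 0.27 to 0.65. Mcm5, another subunit of the ring, had 402 and 368 CPM in tCD115- against 326 and 337 CPM in tCD115+ cells. In naive mice, Mcm5 had 279 and 309 CPM in nCD115- cells against 221 and 201 CPM in nCD115+ cells. Mcm6 had 331 and 306 CPM in tCD115- against 254 and 279.6 CPM in tCD115+ cells. In naive mice, Mcm6 had 228 and 249 CPM in nCD115- cells against 172 and 152 CPM in nCD115+ cells. Like Mcm5, Mcm6 rose with the tumor in both subsets and with the subset in naive mice, while its log2 fold change for tCD115- over tCD115+ was 0.25 (SE 0.10, adjusted p = 0.0743). Mcm3 had 247 and 243 CPM in tCD115- against 237 and 257 CPM in tCD115+ cells. In naive mice, Mcm3 had 183 and 192 CPM in nCD115- cells against 161 and 140.1 CPM in nCD115+ cells. Its tCD115- and tCD115+ libraries overlapped, with a log2 fold change of −0.01 (SE 0.09, adjusted p = 0.939) that changed sign with the scaling, while it rose by 0.71 on the log2 scale (SE 0.09, adjusted p = 0.00997) in tCD115+ over nCD115+ cells. Orc1, the subunit of the origin recognition complex that is regulated through the cell cycle, was the lowest of the 55 genes per length, at a mean of 2.18 FPKM over the 8 libraries by the authors' values. It had 9.92 and 8.74 CPM in tCD115- against 6.69 and 8.21 CPM in tCD115+ cells, and 5.37 and 7.03 CPM in nCD115- cells against 4.72 and 3.3 CPM in nCD115+ cells, and it rose only by the test of tCD115+ over nCD115+ cells (log2 fold change 0.89, adjusted p = 0.0441). Cdt1 and Mcm7 rose in nCD115- over nCD115+ and in tCD115+ over nCD115+ cells, and so did Orc6.

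The subunit genes of the kinase that fires origins passed in different comparisons. Cdc7, the catalytic subunit, had 70.2 and 60.3 CPM in tCD115- against 33.0 and 34.9 CPM in tCD115+ cells. In naive mice, Cdc7 had 52.9 and 61.1 CPM in nCD115- cells against 29.6 and 23.1 CPM in nCD115+ cells. Both CD115- groups were above both CD115+ groups, and its log2 fold change was 0.94 (SE 0.14, adjusted p = 0.00216) for tCD115- over tCD115+, the largest of the 55 genes there, and 1.12 (SE 0.14, adjusted p = 0.00165) for nCD115- over nCD115+. With the tumor its log2 fold changes were 0.19 (SE 0.14, adjusted p = 0.363) in CD115- and 0.37 (SE 0.14, adjusted p = 0.127) in CD115+ cells, and neither passed. Dbf4, the activating subunit, had 62.8 and 95.9 CPM in tCD115- against 100.4 and 104 CPM in tCD115+ cells. In naive mice, Dbf4 had 42.6 and 44.5 CPM in nCD115- cells against 42.1 and 36.5 CPM in nCD115+ cells. Its 4 libraries of TB mice were above its 4 libraries of naive mice, and its log2 fold change was 1.38 (SE 0.18, adjusted p = 0.0101) for tCD115+ over nCD115+, the largest of the 55 genes there, and 0.87 (SE 0.18, adjusted p = 0.0301) for tCD115- over nCD115-. Between subsets its log2 fold changes were −0.36 (SE 0.18, adjusted p = 0.147) in TB mice, where replicate 1 of tCD115- was lower than replicate 2, and 0.15 (SE 0.18, adjusted p = 0.603) in naive mice, and neither passed. The difference between the genes was not tested.

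Of the other genes of helicase activation, Cdc45, which joins the Mcm ring in the active helicase, had 144 and 123 CPM in tCD115- against 97.2 and 99.3 CPM in tCD115+ cells. In naive mice, Cdc45 had 90.7 and 104 CPM in nCD115- cells against 64.5 and 55.8 CPM in nCD115+ cells. It rose in all 4 comparisons, by log2 fold changes of 0.44 (adjusted p = 0.0191) for tCD115- over tCD115+, 0.70 (adjusted p = 0.00624) for nCD115- over nCD115+, 0.46 (adjusted p = 0.047) for tCD115- over nCD115- and 0.71 (adjusted p = 0.0159) for tCD115+ over nCD115+. The GINS genes, whose products complete that helicase, differed among themselves. Gins3 had 30.3 and 27.1 CPM in tCD115- against 20.5 and 21.2 CPM in tCD115+ cells. In naive mice, Gins3 had 22.6 and 24.0 CPM in nCD115- cells against 16.6 and 15.8 CPM in nCD115+ cells. It rose with the subset in both hosts (log2 fold changes 0.46, adjusted p = 0.00696 and 0.53, adjusted p = 0.00797) and in tCD115+ over nCD115+ cells (log2 fold change 0.36, adjusted p = 0.0465). Gins2 had 27.2 and 23.1 CPM in tCD115- against 24.8 and 23.0 CPM in tCD115+ cells. In naive mice, Gins2 had 17.3 and 17.1 CPM in nCD115- cells against 16.5 and 13.5 CPM in nCD115+ cells. It rose with the tumor in both subsets (log2 fold change 0.55, adjusted p = 0.0386 in CD115- and 0.68, adjusted p = 0.0229 in CD115+ cells), while its subset changes on the log2 scale of 0.07 and 0.20 did not pass. Gins1 and Gins4 passed in no comparison, with log2 fold changes of −0.04 to 0.68 and 0.22 to 0.32. Mcm10, a scaffold for helicase activation, rose with the tumor in both subsets (log2 fold change 0.37, adjusted p = 0.0416 and 0.58, adjusted p = 0.0145), with log2 fold changes between subsets of −0.07 and 0.14.

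**Figure D4:**
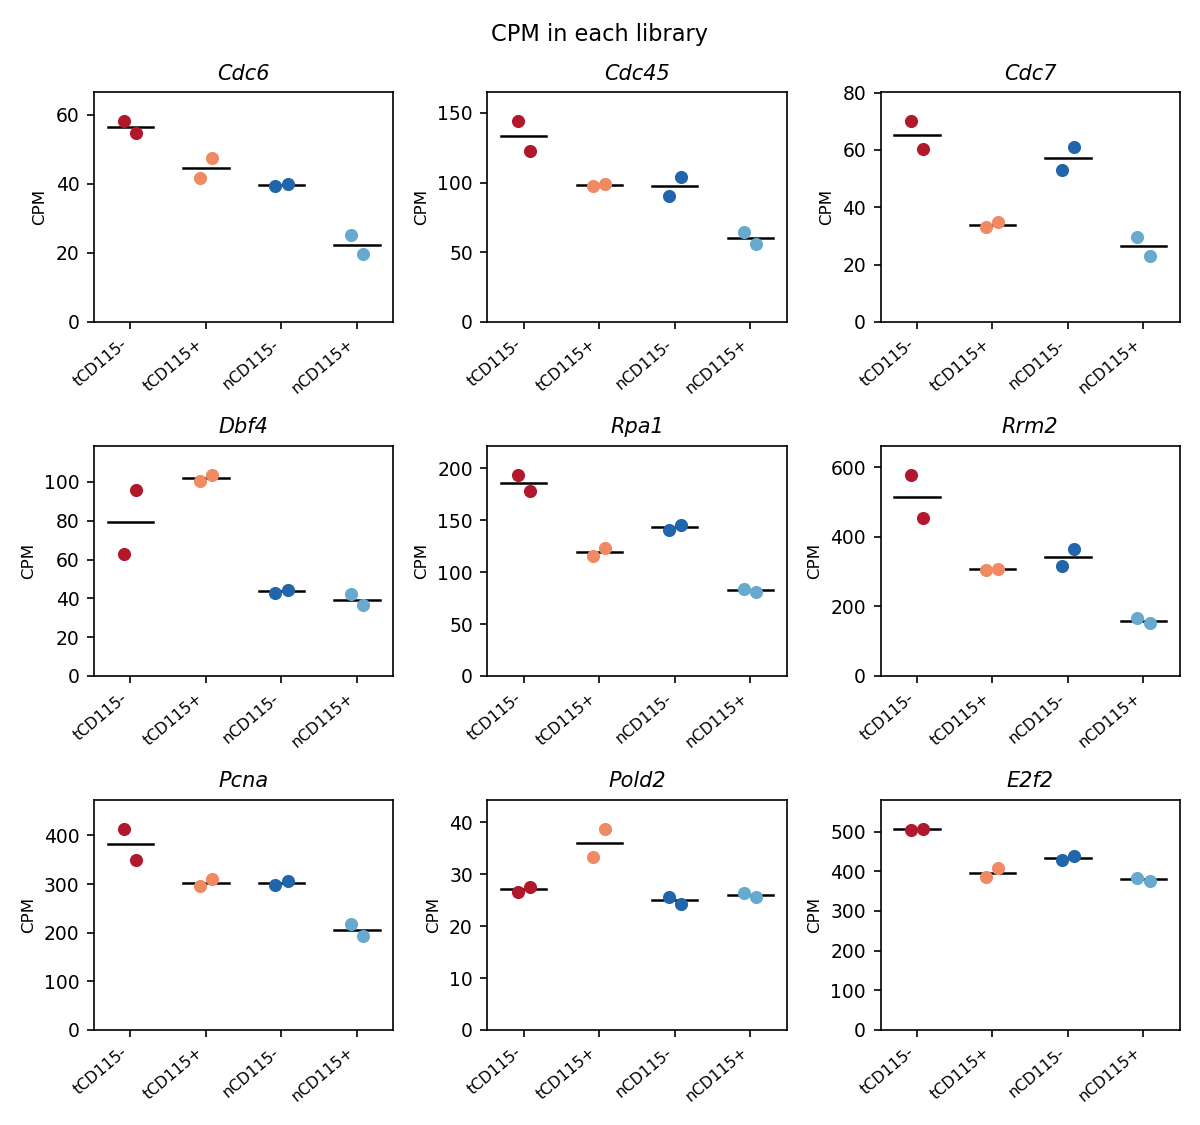
CPM in each library (points, 2 a group) and group means (bars) for 9 genes, with axes from 0. Cdc7 was at 52.9 CPM or more in all 4 CD115- libraries and at 34.9 CPM or less in all 4 CD115+ libraries, while Dbf4 was at 62.8 CPM or more in all 4 libraries of TB mice and at 44.5 CPM or less in all 4 of naive mice.

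Among the 9 polymerase and primase genes, 2 rose (Prim2 and Pold1) and Pold2 fell in tCD115- over tCD115+ cells, 6 rose in nCD115- over nCD115+, 7 in tCD115+ over nCD115+ and none passed in tCD115- over nCD115- cells, where the log2 fold changes ran from 0.12 to 0.42. The genes that rose are 22.2%, 66.7%, 77.8% and 0% of the 9, against 17.7%, 11.8%, 6.09% and 3.19% of all tested genes. Pold1, the catalytic subunit of DNA polymerase delta, which copies the lagging strand, had 132 and 125 CPM in tCD115- against 97.4 and 103 CPM in tCD115+ cells. In naive mice, Pold1 had 97.3 and 120.4 CPM in nCD115- cells against 78.7 and 74.5 CPM in nCD115+ cells. Its replicates in nCD115- differed by more than those of the other groups, and it rose in tCD115- over tCD115+ (log2 fold change 0.36, adjusted p = 0.0311) and in nCD115- over nCD115+ cells (log2 fold change 0.51, adjusted p = 0.0186). Pold2, an accessory subunit of the same polymerase, had 26.6 and 27.5 CPM in tCD115- against 33.4 and 38.7 CPM in tCD115+ cells. In naive mice, Pold2 had 25.7 and 24.2 CPM in nCD115- cells against 26.4 and 25.7 CPM in nCD115+ cells. It was highest in both tCD115+ libraries, with log2 fold changes of −0.41 (SE 0.09, adjusted p = 0.0119) for tCD115- over tCD115+ and 0.47 (SE 0.09, adjusted p = 0.026) for tCD115+ over nCD115+. Pola1, the catalytic subunit of polymerase alpha, which extends the RNA primers, had 80.5 and 75.1 CPM in tCD115- against 82.0 and 88.0 CPM in tCD115+ cells. In naive mice, Pola1 had 66.2 and 66.9 CPM in nCD115- cells against 58.4 and 56.3 CPM in nCD115+ cells. It rose in tCD115+ over nCD115+ cells (log2 fold change 0.57, SE 0.08, adjusted p = 0.011), and its log2 fold changes between subsets were −0.13 in TB and 0.22 in naive mice, neither of which passed. Pola2, its accessory subunit, had −0.03 and 0.19 between subsets on the log2 scale and rose by 0.48 on the log2 scale (adjusted p = 0.0157) in tCD115+ over nCD115+ cells. The primase genes Prim1 and Prim2 and the polymerase epsilon genes Pole and Pole2 rose in nCD115- over nCD115+ and in tCD115+ over nCD115+ cells, and Pold3 rose in nCD115- over nCD115+ cells.

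Pcna, the sliding clamp that holds polymerases on DNA, was the highest of the 55 genes per length, at a mean of 231 FPKM over the 8 libraries by the authors' values, against a median of 25.8 FPKM for the 55. It had 414 and 350.4 CPM in tCD115- against 295 and 310.4 CPM in tCD115+ cells. In naive mice, Pcna had 298 and 307 CPM in nCD115- cells against 218 and 193 CPM in nCD115+ cells. Pcna rose in tCD115- over tCD115+ (log2 fold change 0.33, adjusted p = 0.0364), nCD115- over nCD115+ (log2 fold change 0.56, adjusted p = 0.0105) and tCD115+ over nCD115+ cells (log2 fold change 0.56, adjusted p = 0.0226). Rfc1, the large subunit of the loader that opens the clamp, had 158 and 148 CPM in tCD115- against 114 and 115 CPM in tCD115+ cells. In naive mice, Rfc1 had 121 and 136 CPM in nCD115- cells against 90.9 and 93.1 CPM in nCD115+ cells. Its log2 changes were larger between subsets (log2 fold change 0.42, adjusted p = 0.00652 and 0.48, adjusted p = 0.00669) than between hosts (log2 fold change 0.25, adjusted p = 0.0799 in CD115- and 0.32, adjusted p = 0.0477 in CD115+ cells), a difference that was not tested. Rfc4 had 42.6 and 34.4 CPM in tCD115- against 34.5 and 36.7 CPM in tCD115+ cells. In naive mice, Rfc4 had 28.3 and 29.0 CPM in nCD115- cells against 21.2 and 18.7 CPM in nCD115+ cells. Its libraries of tCD115- and tCD115+ overlapped, with a log2 fold change of 0.11 (SE 0.12, adjusted p = 0.476), and it rose in nCD115- over nCD115+ (log2 fold change 0.53, SE 0.12, adjusted p = 0.0237) and in tCD115+ over nCD115+ cells (log2 fold change 0.84, SE 0.12, adjusted p = 0.0117). Rfc2 was the flattest of the loader genes, with log2 fold changes of 0.03 to 0.15, none of which passed. Rfc3 rose in 3 comparisons and Rfc5 in nCD115- over nCD115+ and tCD115+ over nCD115+ cells.

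Rpa1, the large subunit of the complex that coats single-stranded DNA at the fork, had the smallest adjusted p of the 55 genes in 3 comparisons. It had 194 and 178 CPM in tCD115- against 115 and 123 CPM in tCD115+ cells. In naive mice, Rpa1 had 140.1 and 146 CPM in nCD115- cells against 84.2 and 80.5 CPM in nCD115+ cells. The 4 groups did not overlap, and its log2 fold change was 0.64 (SE 0.08, adjusted p = 0.00101) for tCD115- over tCD115+, 0.80 (SE 0.08, adjusted p = 0.000547) for nCD115- over nCD115+ and 0.38 (SE 0.08, adjusted p = 0.0299) for tCD115- over nCD115-. The other subunits of the complex were less clear: Rpa2 rose in tCD115+ over nCD115+ cells (log2 fold change 0.61, adjusted p = 0.0281) and Rpa3 passed in none. Lig1, the ligase that seals Okazaki fragments, had 245 and 217 CPM in tCD115- against 161 and 168 CPM in tCD115+ cells. In naive mice, Lig1 had 158 and 184 CPM in nCD115- cells against 107 and 92.6 CPM in nCD115+ cells. It rose in all 4 comparisons, by 0.49 on the log2 scale (adjusted p = 0.0125) for tCD115- over tCD115+, 0.78 (adjusted p = 0.00341) for nCD115- over nCD115+, 0.44 (adjusted p = 0.049) for tCD115- over nCD115- and 0.73 (adjusted p = 0.0145) for tCD115+ over nCD115+. Fen1, the flap nuclease that prepares those fragments, had 124 and 105 CPM in tCD115- against 104 and 109.8 CPM in tCD115+ cells. In naive mice, Fen1 had 83.3 and 86.2 CPM in nCD115- cells against 74.6 and 66.7 CPM in nCD115+ cells. It rose with the tumor in both subsets (log2 fold change 0.44, adjusted p = 0.0393 and 0.60, adjusted p = 0.0178), and its subset changes on the log2 scale of 0.10 and 0.26 did not pass.

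Genes of nucleotide supply make or clear the deoxynucleotides that polymerases use. Rrm2, the regulated subunit of ribonucleotide reductase, had 578 and 453 CPM in tCD115- against 306 and 306 CPM in tCD115+ cells. In naive mice, Rrm2 had 316 and 365 CPM in nCD115- cells against 168 and 151 CPM in nCD115+ cells. The tCD115+ and nCD115- libraries did not overlap and lay between the other groups. Rrm2 rose in all 4 comparisons, by 0.75 on the log2 scale (SE 0.13, adjusted p = 0.00425) for tCD115- over tCD115+, 1.10 (SE 0.13, adjusted p = 0.00138) for nCD115- over nCD115+, 0.60 (SE 0.13, adjusted p = 0.0341) for tCD115- over nCD115- and 0.94 (SE 0.13, adjusted p = 0.0117) for tCD115+ over nCD115+. Rrm1, the large subunit of the same enzyme, had 548 and 458 CPM in tCD115- against 387 and 403 CPM in tCD115+ cells. In naive mice, Rrm1 had 341 and 370.1 CPM in nCD115- cells against 261 and 227 CPM in nCD115+ cells. It too rose in all 4, by log2 fold changes of 0.35 to 0.69. Tk1, the thymidine kinase of the salvage pathway, rose in tCD115- over tCD115+ cells (log2 fold change 0.58, adjusted p = 0.0366) and had 0.63 (adjusted p = 0.0526) in naive mice, which did not pass. Tyms, thymidylate synthase, and Dut, which removes dUTP, rose in nCD115- over nCD115+ and in tCD115+ over nCD115+ cells.

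All 5 genes of chromatin copying (Chaf1a, Chaf1b, Uhrf1, Dnmt1 and Slbp) rose in nCD115- over nCD115+ cells and 3 (Chaf1a, Uhrf1 and Slbp) in tCD115- over tCD115+ cells, while 2 rose in tCD115- over nCD115- and 4 in tCD115+ over nCD115+ cells. These are 100%, 60%, 40% and 80% of the 5, against 11.8%, 17.7%, 3.19% and 6.09% of all tested genes. Uhrf1, which brings the maintenance DNA methyltransferase to hemimethylated sites, had 298 and 287 CPM in tCD115- against 209.5 and 229 CPM in tCD115+ cells. In naive mice, Uhrf1 had 209 and 246 CPM in nCD115- cells against 148 and 132 CPM in nCD115+ cells. Its log2 fold change was 0.70 (SE 0.11, adjusted p = 0.0042) in naive mice between subsets and 0.41 (SE 0.10, adjusted p = 0.0185) in TB mice. Dnmt1, that methyltransferase, had 478 and 509 CPM in tCD115- against 416 and 439 CPM in tCD115+ cells. In naive mice, Dnmt1 had 365 and 439 CPM in nCD115- cells against 311 and 309 CPM in nCD115+ cells. Chaf1b, a subunit of the chaperone that places histones on new DNA, had 43.7 and 35.5 CPM in tCD115- against 31.3 and 30.9 CPM in tCD115+ cells. In naive mice, Chaf1b had 25.7 and 27.1 CPM in nCD115- cells against 19.5 and 15.4 CPM in nCD115+ cells. Chaf1b rose with the tumor in both subsets (log2 fold change 0.59, adjusted p = 0.0397 and 0.83, adjusted p = 0.0172) and Dnmt1 in CD115+ cells (log2 fold change 0.46, adjusted p = 0.0318).

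The G1/S regulators comprise 2 cyclin E genes and 2 activator E2F genes. Ccne1, a cyclin E that activates Cdk2, had 54.8 and 44.7 CPM in tCD115- against 42.7 and 45.2 CPM in tCD115+ cells. In naive mice, Ccne1 had 33.2 and 31.7 CPM in nCD115- cells against 25.1 and 19.6 CPM in nCD115+ cells. It rose with the tumor in both subsets (log2 fold change 0.62, adjusted p = 0.0366 and 0.98, adjusted p = 0.0121) and with the subset in naive mice (log2 fold change 0.54, adjusted p = 0.0387). Ccne2, the other cyclin E, had 68.6 and 43.3 CPM in tCD115- against 33.9 and 35.5 CPM in tCD115+ cells. In naive mice, Ccne2 had 46.9 and 44.7 CPM in nCD115- cells against 21.8 and 18.6 CPM in nCD115+ cells. It rose by 1.18 on the log2 scale (SE 0.20, adjusted p = 0.00657) in nCD115- over nCD115+ cells, the largest change of the 55 genes there, and by 0.69 on the log2 scale (SE 0.19, adjusted p = 0.0268) in tCD115- over tCD115+, where replicate 1 of tCD115- was well above replicate 2. E2f2, an activator E2F, had 505 and 507 CPM in tCD115- against 385 and 408 CPM in tCD115+ cells. In naive mice, E2f2 had 428 and 438 CPM in nCD115- cells against 383 and 377 CPM in nCD115+ cells. The tCD115- libraries were above all others, and E2f2 rose in tCD115- over tCD115+ cells by 0.35 on the log2 scale (SE 0.07, adjusted p = 0.00782), with 0.19 (SE 0.07, adjusted p = 0.111) in naive mice and 0.06 (SE 0.07, adjusted p = 0.596) for tCD115+ over nCD115+. E2f1 rose with the subset in both hosts (log2 fold change 0.42, adjusted p = 0.0221 and 0.49, adjusted p = 0.0259) and did not pass between hosts. Among genes of checkpoint and repair at forks, Brca1, which protects and repairs broken forks, had 72.8 and 72.9 CPM in tCD115- against 48.3 and 49.8 CPM in tCD115+ cells. In naive mice, Brca1 had 45.0 and 59.9 CPM in nCD115- cells against 32.3 and 31.0 CPM in nCD115+ cells. It rose in 3 comparisons, by 0.57 on the log2 scale (adjusted p = 0.0109), 0.73 (adjusted p = 0.0079) and 0.63 (adjusted p = 0.0265), and had 0.47 (adjusted p = 0.053) for tCD115- over nCD115-. Chek1, the kinase of the replication checkpoint, rose by 1.06 on the log2 scale (SE 0.18, adjusted p = 0.00777) in nCD115- over nCD115+ cells. Chek1 also rose in tCD115- over tCD115+ (log2 fold change 0.62, adjusted p = 0.0307) and in tCD115+ over nCD115+ cells (log2 fold change 0.81, adjusted p = 0.0357). Exo1, an exonuclease, rose in naive mice between subsets and in tCD115+ over nCD115+ cells.

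None of the 55 genes passed the test of whether the subset difference depended on the host. Of the 55 genes, 53 had a smaller log2 fold change for tCD115- over tCD115+ than for nCD115- over nCD115+, with a median difference of −0.22 against −0.06 over all genes, but none passed with edgeR, DESeq2 or limma-voom. The median difference was −0.34 without nCD115+ replicate 1, −0.14 without tCD115- replicate 2 and −0.13 without nCD115+ replicate 2, and 1 gene (Dbf4, difference −0.85, adjusted p = 0.0128) passed without tCD115- replicate 2. With edgeR, 6 genes (Cdc6, Cdt1, Mcm3, Pola1, Pold2 and Rfc4) had an unadjusted p under 0.05, all with a negative difference, and 751 genes did over the whole table, 397 of them with a negative difference. The smallest adjusted p of the 55 genes was 0.835 (Pola1, difference −0.34, SE 0.11), and 0.0805 over all genes. On the log2 scale, the largest negative differences were those of Dbf4 (log2 fold change −0.51, SE 0.25), Ccne2 (log2 fold change −0.49, SE 0.27) and Cdc6 (log2 fold change −0.48, SE 0.17), and the largest positive one was that of E2f2 (log2 fold change 0.16, SE 0.10). The same value measures whether the tumor difference depended on the subset.

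**Figure D5:**
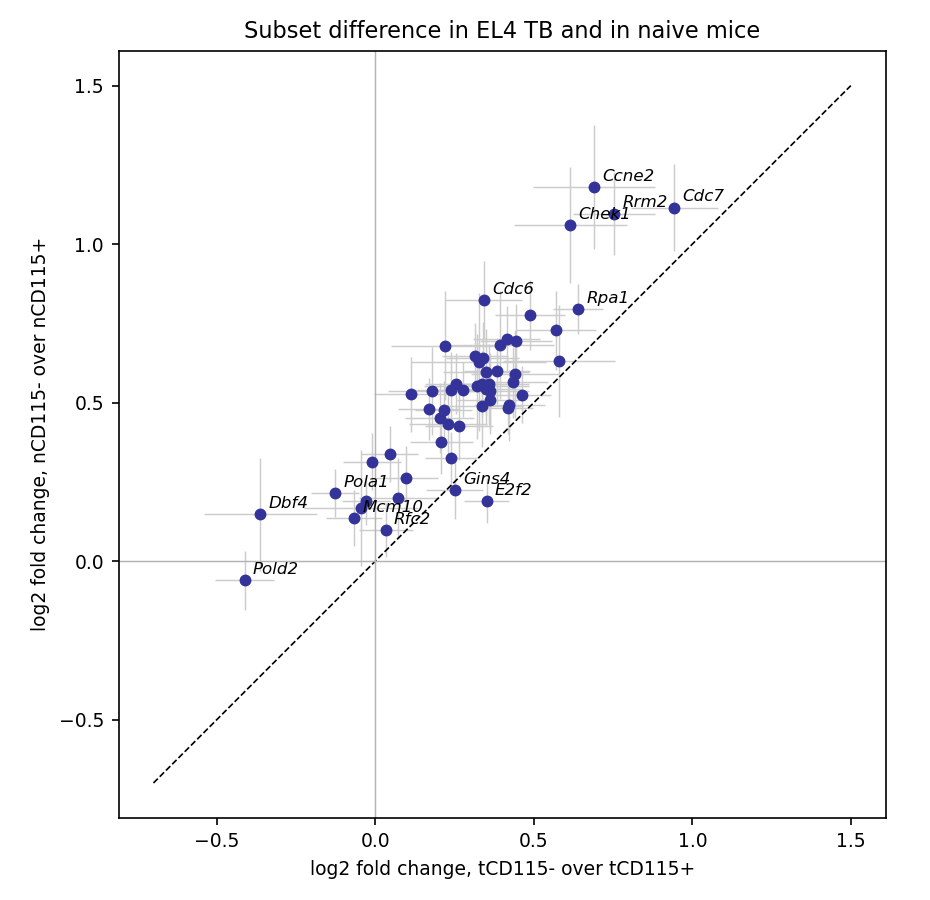
Each point is 1 of the 55 genes, with its log2 fold change for tCD115- over tCD115+ on the horizontal axis and for nCD115- over nCD115+ on the vertical axis; grey bars are standard errors and the dashed line marks equal changes. For 53 genes the point is above the line, none of the differences passing the interaction test; E2f2 and Gins4 are below it.

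Between tCD115+ and nCD115- cells, which differ in both host and subset and were not tested against each other, the 55 genes divided. Both tCD115+ libraries were above both nCD115- libraries for 25 genes, among them Dbf4, Mcm3, Mcm10, Pola1, Fen1 and Ccne1, and below them for 13, among them Cdc7, Rpa1, Rrm2, Rfc1, E2f1, E2f2, Ccne2 and Chek1. The remaining 17, among them Pcna, Mcm2, Lig1 and Uhrf1, overlapped. Of all tested genes, 36.7% had both tCD115+ libraries above both nCD115- libraries and 35.9% had both below.

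Other genes of the same pathway were counted from lists. For comparison, 17.7% of all tested genes rose and 19.9% fell in tCD115- over tCD115+ cells, and 11.8% rose in nCD115- over nCD115+. Between hosts, 3.19% of all tested genes rose in tCD115- over nCD115- and 6.09% in tCD115+ over nCD115+ cells. Of 43 further replication and G1/S genes, 14 rose and 3 (Rnaseh2a, Dna2 and Pold4) fell in tCD115- over tCD115+ cells, 22 rose in nCD115- over nCD115+, 4 in tCD115- over nCD115- and 26 in tCD115+ over nCD115+. Cdc25a, the phosphatase that activates Cdk2 with cyclin E, moved most, with 246 and 189 CPM in tCD115- against 37.1 and 40.7 CPM in tCD115+ cells. In naive mice, Cdc25a had 127 and 161 CPM in nCD115- cells against 28.8 and 25.1 CPM in nCD115+ cells. Both CD115- groups were far above both CD115+ groups, by log2 fold changes of 2.48 (SE 0.17, adjusted p = 6.48e-05) in TB and 2.42 (SE 0.17, adjusted p = 0.000102) in naive mice, and the log2 tumor changes of 0.59 and 0.53 did not pass. Cdk2 had 217 and 182 CPM in tCD115- against 105 and 114 CPM in tCD115+ cells, and 155 and 165 CPM in nCD115- cells against 97.5 and 86.1 CPM in nCD115+ cells, with 0.87 (adjusted p = 0.0011) and 0.80 (adjusted p = 0.00249) between subsets. Of 19 tested genes of pocket proteins, D cyclins and other E2F members, 6 rose and 3 fell in tCD115- over tCD115+ cells, 7 rose in nCD115- over nCD115+, 1 (Ccnd3) in tCD115- over nCD115- and 5 in tCD115+ over nCD115+. Tfdp1, the dimer partner of E2F proteins, had 572 and 415 CPM in tCD115- against 186 and 196 CPM in tCD115+ cells, and 313 and 397 CPM in nCD115- cells against 137 and 122 CPM in nCD115+ cells, with 1.37 (adjusted p = 0.00108) and 1.45 (adjusted p = 0.00125) between subsets. Cdk6 rose by 1.08 on the log2 scale (adjusted p = 0.0036) and 0.89 (adjusted p = 0.0154) and Ccnd3 by 0.64 on the log2 scale (adjusted p = 0.00164) and 0.54 (adjusted p = 0.00628), while Cdk4, E2f6 and E2f5 fell in tCD115- over tCD115+ cells (−0.50, −0.39 and −1.22). E2f8, E2f7 and Ccnd2 also rose between subsets in both hosts. In TB and naive mice the log2 fold changes were 0.53 (adjusted p = 0.00281) and 0.66 (adjusted p = 0.0017) for E2f8. They were 0.39 (adjusted p = 0.0155) and 0.68 (adjusted p = 0.00278) for E2f7, and 1.44 (adjusted p = 0.00231) and 0.96 (adjusted p = 0.0225) for Ccnd2. Of 5 tested genes of CDK inhibitors, Cdkn2d rose (log2 fold change 0.29, adjusted p = 0.0477) and Cdkn1a, which encodes p21, fell (log2 fold change −0.71, adjusted p = 0.0154) in tCD115- over tCD115+ cells, and Cdkn2d rose with the tumor in both subsets.

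Mitosis and G2/M genes have mRNAs that peak later in the cycle. Of 20, 1 rose in tCD115- over tCD115+ cells (Cenpf), 1 in nCD115- over nCD115+ (Ttk), 6 in tCD115- over nCD115- and 11 in tCD115+ over nCD115+. These are 5%, 5%, 30% and 55% of the list, against 17.7%, 11.8%, 3.19% and 6.09% of all tested genes. The median log2 fold changes of the 20 were 0.19, 0.22, 0.41 and 0.49. The 55 S-phase genes had medians of 0.33, 0.54, 0.39 and 0.63 in the same comparisons. The difference between the lists was not tested. Top2a, a topoisomerase gene of S and G2 phase, had 1208 and 1098 CPM in tCD115- against 1089 and 1124 CPM in tCD115+ cells. In naive mice, Top2a had 849.7 and 954 CPM in nCD115- cells against 812 and 744 CPM in nCD115+ cells. Mki67 had 1266 and 1664 CPM in tCD115- against 1106 and 1201 CPM in tCD115+ cells of TB mice. Its naive values were 972 and 1182 CPM in nCD115- cells against 911 and 930.1 CPM in nCD115+ cells.

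The genes outside these lists whose level followed the 55 genes most closely over the 8 libraries were Tubgcp2 and Blm (Pearson r of 0.997 each with the mean standardised log2 CPM), Zwilch, Hnrnpll and Ppil1 (0.994 each). Tubgcp2 had 60.4 and 54.5 CPM in tCD115-, 50.2 and 52.1 CPM in tCD115+, 47.3 and 49.5 CPM in nCD115- and 39.9 and 37.7 CPM in nCD115+ libraries. The libraries share these groups, and the values are given as a description. The 8 libraries held 69692398 to 95353798 reads in genes, with a median of 91432632, so that 1 read was worth 0.0109 CPM and counting error was small beside the spread between replicates.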

How the data were processed

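RNA was extracted from the sorted cells, and mRNA libraries were made with a stranded kit. The submitters' processing notes name HISAT2 2.0.5, StringTie 1.3.3b and build mm10; how strand was set in counting was not stated there. The authors deposited raw read counts per gene, and these counts were tested. FPKM values, which the authors scaled by gene length and library total, were used only to compare levels between genes. Another 12 columns, of the authors' normalised values and group means, and the deposited fold changes and p-values of the authors' comparisons were not used.

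Counts were analysed with R 4.3.3, edgeR 4.0.16 (filterByExpr, TMM, robust quasi-likelihood fit, 1 mean per group, 4 residual degrees of freedom) and, as alternatives, DESeq2 1.42.0 and limma 3.58.1 voom; figures were drawn with matplotlib 3.10.9. Scripts were tested on simulated counts. Replicates within each group differed by more than sampling noise in a chi-square test. Sources do not say that replicates came from separate animals, so p-values measure the spread between these libraries. The genes given with values in every library were, for each comparison, up to 10 of smallest p past the threshold, and the gene of highest mean CPM in each role. Of the other lists, genes were drawn from up to 4 a list and comparison by the same rule, or the 2 of highest mean CPM. Not every gene so picked is shown with values in every library, and any further gene was chosen after its values were seen. The members and lists were chosen with earlier results of these data known. Other settings were other scalings, filters, tools, samples, a replicate block and leaving out each library.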

Additional observations from a re-analysis of the deposited data

How the results depend on the processing

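The median log2 fold change of the 55 genes stayed positive in the 4 comparisons under every setting run. Library totals alone, which moved the median of all genes to −0.20 in tCD115- over tCD115+ (−0.05 with TMM) and −0.12 in nCD115- over nCD115+, gave 8 genes that rose, 2 that fell and a median of 0.18 in tCD115- over tCD115+, 8 that rose in tCD115- over nCD115- and 1 past 2-fold in nCD115- over nCD115+. With only the 4 libraries compared, 14 rose and 0 fell in tCD115- over tCD115+, and 0 rose in tCD115- over nCD115-, where DESeq2 gave 40. With limma-voom 2 genes were past 2-fold in tCD115+ over nCD115+. No source says whether same-numbered libraries share animals, and their deviations correlated at −0.0990 to 0.0778 over all genes and −0.237 to 0.474 over the 55, so pairing was not shown. With a replicate block 7 genes rose in tCD115- over nCD115- and 19, 38 and 39 in tCD115- over tCD115+, nCD115- over nCD115+ and tCD115+ over nCD115+.

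Leaving out 1 library at a time, the genes that rose numbered 3 to 35 in tCD115- over tCD115+ (0 to 2 fell), 6 to 47 in nCD115- over nCD115+, 0 to 43 in tCD115- over nCD115- and 0 to 51 in tCD115+ over nCD115+, and those past 2-fold 0 to 1, 1 to 5, 0 to 1 and 0 to 3. The medians were 0.23 to 0.39, 0.43 to 0.65, 0.29 to 0.46 and 0.52 to 0.72, and −0.34 to −0.13 for the interaction, where 0 to 1 genes were lower at the threshold. A lone library was then assumed to vary like the other groups, and the cause of these shifts was not tested. Values near 0 changed sign. Mcm3 in tCD115- over tCD115+ was 0.030 with RLE, 0.031 with DESeq2, 0.0035 with a 10-count filter, 0.038 with 4 libraries, 0.0042 without nCD115- replicate 1 and −0.070 to 0.049 over the left-out libraries. There, library totals gave −0.049 for Fen1, −0.034 for Rfc4 and −0.073 for Gins2, and the left-out libraries −0.014 to 0.21, −0.032 to 0.26 and −0.035 to 0.18, the lowest without tCD115- replicate 1. Ccne2 in tCD115- over nCD115- was −0.083 to 0.58, lowest without tCD115- replicate 1. The interaction ranged from −0.13 to 0.015 for Gins3 (highest without tCD115- replicate 2), −0.34 to 0.063 for Brca1, −0.28 to 0.017 for Pold1 and −0.14 to 0.020 for Rfc1 (highest without nCD115- replicate 2) and −0.28 to 0.0097 for Gins2 (highest without nCD115+ replicate 2). Over single genes and settings, 1854 values kept direction and side of the threshold, 366 no longer passed, 53 newly passed and 18 changed sign.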
